A study of Mus musculus with 3 samples.

Results

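Ptprc encodes CD45, the receptor-type tyrosine phosphatase that sits on nearly all nucleated blood cells and sets the activity of Src family kinases such as Lck at the T cell receptor. Its RNA is a classic case of regulated splicing: variable exons 4, 5 and 6, also called A, B and C, encode a heavily glycosylated stretch of the outer part of the protein, and T cells skip more of them after activation and in memory. The form with none of them is known as CD45RO, the form with B alone as CD45RB, and the form with all of them as B220 on B cells. The genes described here are Ptprc and 7 RNA-binding proteins, namely Hnrnpll, Hnrnpl, Ptbp1, Sfpq, Celf2, Khdrbs1 and Mbnl1, most of which are known to act on CD45 exons or on other signal-dependent exons in lymphocytes. They were chosen by symbol in the GENCODE M21 annotation of the gene and transcript tables, and make up 8 of 55536 genes and 112 of 141862 transcript entries, of which 13 belong to Ptprc.

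RNA was polyA-selected from primary CD4-positive effector memory T cells, carrying the alpha-beta receptor, of 1 adult male C57BL/6J mouse aged 7 months. The labels name the 3 libraries technical replicates 1, 2 and 3 of 1 biological replicate, so there is 1 group, with no other genotype, treatment or naive population to set it against. Values are mean ± SD over n = 3 libraries unless each library is given, and that SD and every p-value measure technical spread within 1 mouse. The series thus describes the RNA of the annotated CD45 forms and of the regulators in these cells, and how closely the libraries matched.

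The 3 libraries held 16251564, 14878641 and 14152590 estimated counts over genes. All 6 markers of CD4 T cells exceeded 100 TPM (a length-normalised level), and the memory genes Cd44 and Cxcr3 averaged 131 ± 8.63 and 302 ± 14.9 TPM. The chemokine receptor gene Ccr7, which effector memory cells are taken to lack, was at 239 ± 10.2 TPM. None of the 7 B cell markers averaged 1 TPM, and they summed to 2.19, 1.47 and 1.93 TPM in libraries 1, 2 and 3. Among natural killer markers, Klrk1 and Klrb1c were at 182 ± 2.24 and 18.0 ± 4.19 TPM, whereas Ncr1 was at 0.107 ± 0.0924 TPM and Klra8 was listed at 0 in every library. The other listed markers of CD8 T cells, monocytes, dendritic cells, neutrophils, red cells, platelets and stroma averaged under 5 TPM, apart from the endothelial gene Pecam1, at 59.7 ± 0.636 TPM.

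Ptprc (ENSMUSG00000026395.16, minus strand, mm10 chr1:138062861-138175708) measured 1523, 1595 and 1511 TPM in libraries 1, 2 and 3. At 1543 ± 45.4 TPM it ranked 61 of 22028 protein-coding genes, against a median of 25.5 TPM over the 10518 such genes at 1 TPM or more. Exons are numbered here along Ptprc-207, the annotated entry with 33 exons that holds A, B and C. The variable exons and exon 7 are shown because their presence or absence defines every CD45 form measured. They are printed 5′ to 3′ on the sense strand from the GENCODE M21 transcripts, and capitals mark each CACA or ACAC, the CA-rich letters that hnRNP L and hnRNPLL are known to bind.
Exon 4 (A), chr1:138122456-138122584: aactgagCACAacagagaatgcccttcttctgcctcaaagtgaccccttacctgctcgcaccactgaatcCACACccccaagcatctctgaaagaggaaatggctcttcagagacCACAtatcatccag
Exon 5 (B), chr1:138120020-138120166: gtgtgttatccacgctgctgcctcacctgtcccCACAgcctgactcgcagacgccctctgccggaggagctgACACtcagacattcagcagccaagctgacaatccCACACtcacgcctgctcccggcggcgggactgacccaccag
Exon 6 (C), chr1:138117754-138117894: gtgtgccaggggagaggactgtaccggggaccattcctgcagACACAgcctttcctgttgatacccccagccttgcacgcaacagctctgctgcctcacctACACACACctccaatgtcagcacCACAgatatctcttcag
Exon 7, chr1:138116954-138117025: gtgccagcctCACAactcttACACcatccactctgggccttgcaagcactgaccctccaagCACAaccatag

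The 4 exons are 129, 147, 141 and 72 bases long, each a multiple of 3, so leaving out any of them keeps the reading frame. On the sense strand CACA occurred 3 times in A, 2 times in B, 4 times in C and 2 times in exon 7, counting overlapping matches. Internal exons of protein-coding transcripts within 10 bases of the same lengths held on average 0.642, 0.753, 0.715 and 0.354 matches, and 45.0%, 50.6%, 48.8% and 28.5% of them held at least 1. Its reverse complement TGTG occurred 0 times in A and exon 7 and 1 time each in B and C. The other searched letters were TCTT for PTBP1, TGTT for CELF proteins, TGCT for MBNL proteins and TAAA for KHDRBS1. TCTT occurred 2 times in A, 1 time each in C and exon 7, and 0 times in B, where 40.0%, 43.1%, 25.8% and 44.4% of exons of like length hold it. TGTT occurred 1 time each in B and C, where 39.2% and 38.5% of like exons hold it, and TAAA in none of the 4. TGCT occurred 2 times in B and 1 time each in A and C, where 57.0%, 52.4% and 55.1% of like exons hold it. These are matches of letters and were not tested as binding sites.

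CD45 forms differ first in what is joined to the end of exon 3. The following junctions, each 50 bases long like the fragments assumed in the quantification, show 4 such joins, with the exon joined to exon 3 in capitals; exon 8 is only 24 bases long, so the last bases of its line belong to exon 9.
Exon 3 to exon 7, none of A, B or C: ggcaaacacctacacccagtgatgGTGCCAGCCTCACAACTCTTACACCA
Exon 3 to exon 8, none of A, B or C and no exon 7: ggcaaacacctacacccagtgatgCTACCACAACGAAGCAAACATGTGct
Exon 3 to exon 5, B without A: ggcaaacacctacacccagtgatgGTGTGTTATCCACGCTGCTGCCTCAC
Exon 3 to exon 4, A retained: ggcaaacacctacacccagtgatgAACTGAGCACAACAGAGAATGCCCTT

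The first join occurred in Ptprc-203 alone, the next in Ptprc-204 alone and the third in Ptprc-213 alone, while the join to A was shared by Ptprc-206, Ptprc-207 and Ptprc-212 and so does not by itself mark the form with A, B and C. The join to exon 5 shows B without A, and the absence of C needs the join of exon 5 to exon 7, which Ptprc-213 alone held. Of the 13 annotated Ptprc entries, 4 reach from exon 3 to exon 8 and can be classed by their variable exons: Ptprc-203, Ptprc-204, Ptprc-207 and Ptprc-213. None of these combines A with B, B with C or A with C alone, so reads from such forms could be assigned only to the entries present.

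Most of the CD45 RNA that could be classed in these effector memory cells held none of the variable exons. Ptprc-203, the CD45RO entry, was at 678, 783 and 665 TPM in libraries 1, 2 and 3, and Ptprc-204, which also lacks exon 7, was at 159, 151 and 163 TPM. Together they took 81.3%, 83.6% and 81.6% of the TPM of the 4 spanning entries, or 82.2% ± 1.25. Exon 7 was missing from 18.3% ± 1.84 of that RO fraction. This shorter form encodes 1130 codons, against 1154 for Ptprc-203 and 1293 for the full Ptprc-207.

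The remainder was almost all RB. Ptprc-213, with B and exon 7 but neither A nor C, was at 187, 175 and 181 TPM, or 18.2%, 15.6% and 17.9% of the spanning TPM. The full-length B220 entry Ptprc-207 was at 5.33, 8.48 and 5.89 TPM and took 0.518%, 0.758% and 0.580%. Exon B was therefore in 17.8% ± 1.25 of the spanning TPM and A and C each in 0.619% ± 0.125. In bulk RNA, a mixture of cells that each carry 1 form cannot be told apart from cells that each carry several. The order RO with exon 7, RB, RO without exon 7 and full length held in all 3 libraries; RB and RO without exon 7 were close, at 17.2% ± 1.37 and 15.0% ± 1.31. Their ranges over libraries, 15.6% to 18.2% and 13.5% to 16.1%, overlapped.

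**Figure D1:**
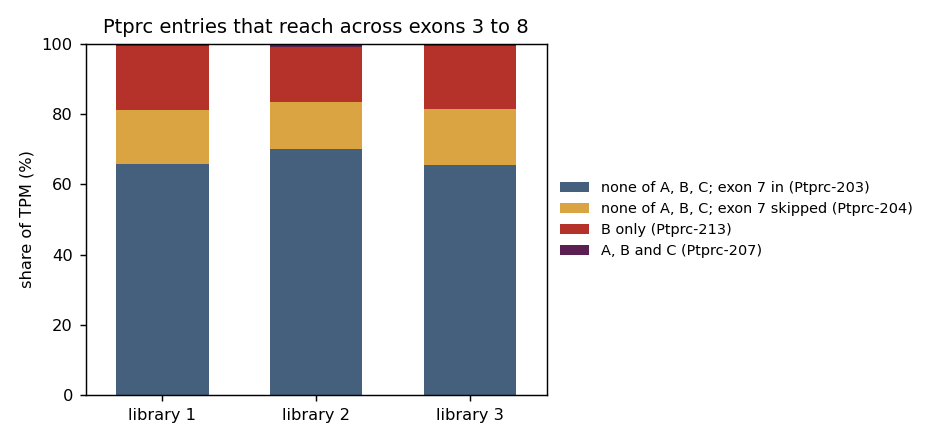
Stacked bars give the share (%) of the TPM of the 4 spanning Ptprc entries in each library, by variable exon content. The blue RO class with exon 7 took 65.9%, 70.1% and 65.5% in libraries 1, 2 and 3, and the class with A, B and C is the sliver at the top.

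The certainty of these shares differs by class. Ptprc-203, Ptprc-204 and Ptprc-207 share their exons from 8 onwards, and only 51 of 4653, 48 of 4562 and 85 of 5025 of their 50-base windows occur in no other Ptprc entry. The deposited posterior SD, which measures how uncertain the assignment of reads was, came to 2.13% to 2.22% of the count for Ptprc-203, 8.75% to 10.7% for Ptprc-204 and 24.1% to 44.7% for Ptprc-207. For Ptprc-213 it was 3.83% to 4.22%, with 88 of 653 windows its own. Ptprc-213 is 702 bases long and ends inside exon 10, so reads of an RB transcript from exons further on could be assigned only to longer entries. Any such reads would add to the TPM of those entries and lower the RB share. By estimated counts, which do not correct for that length, RB was 2.85% of the spanning entries and RO with exon 7 was 79.0%. A 702-base entry collects fewer reads than the 4702-base Ptprc-203 at the same level, so these count shares do not measure how common the forms were.

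**Figure D2:**
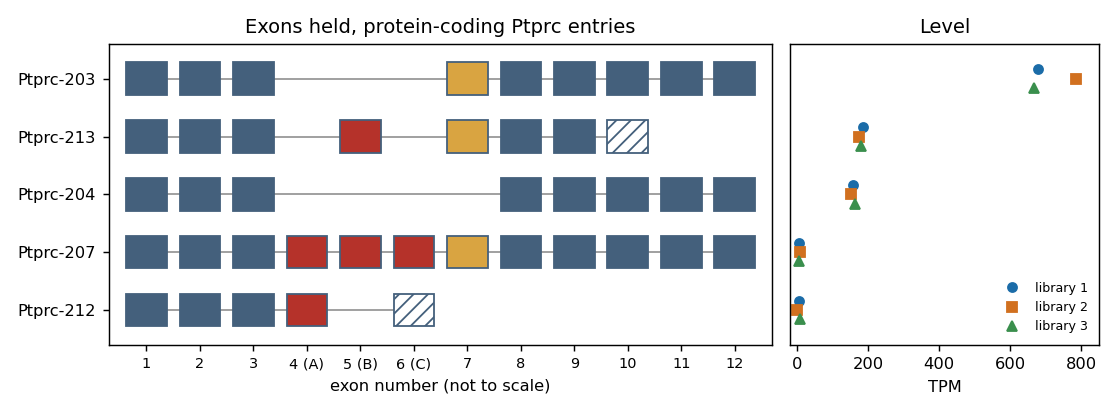
Boxes mark which of exons 1 to 12 each protein-coding Ptprc entry holds (variable exons in red, exon 7 in gold, hatched where the entry ends inside the exon; exon 1 is drawn whole although starts differ), beside its TPM in each library. Ptprc-203 lies far above the rest, Ptprc-213 and Ptprc-204 lie between 151 and 187 TPM, and Ptprc-207 stays under 10 TPM.

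Full CD45RABC is the B cell form, and the B cell marker Cd79a was at 0.473 ± 0.159 TPM beside it. Ptprc-212, a short entry that holds A, skips B and ends inside C, was at 5.19 and 9.55 TPM in libraries 1 and 3 and listed at 0 in library 2. Ptprc-206, a retained-intron entry that holds A, was listed at 0 in every library.

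The 4 spanning entries took 68.3% ± 1.59 of all Ptprc TPM. GENCODE labels 8 Ptprc entries as retained introns, and these summed to 31.4% ± 1.30 of the gene's TPM, beside a median of 13.0% over 5050 genes with such entries. The main one was Ptprc-208, a 1-exon entry of 3213 bases that covers exon 2 and runs into the introns on either side. It was at 273, 287 and 264 TPM, or 17.8% ± 0.262 of the gene, with a posterior SD of at most 0.24% of its count. Further down, Ptprc-205 took 4.61% ± 0.745, Ptprc-202 took 4.14% ± 0.417, Ptprc-201 took 2.62% ± 0.259 and Ptprc-210 took 1.69% ± 0.213. Ptprc-211 took 0.517% ± 0.0453, and Ptprc-209 was listed at 0. The gene A130071D04Rik lies in a Ptprc intron on the same strand without overlapping its exons, and was at 23.9, 25.1 and 25.5 TPM.

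Among the 7 regulators, levels spanned from Mbnl1 at 739.9 ± 52.8 TPM to Hnrnpll at 39.9 ± 4.29 TPM. The order Mbnl1, Ptbp1, Hnrnpl, Celf2, Sfpq, Khdrbs1, Hnrnpll was the same in all 3 libraries, and no gene's range overlapped its neighbour's. The gaps between Celf2 and Sfpq and between Sfpq and Khdrbs1 were narrow. The lowest Celf2 library, at 153 TPM, stood near the highest Sfpq library, at 147 TPM, and the lowest Sfpq library, at 131 TPM, near the highest Khdrbs1 library, at 126 TPM. The middle of this order depends on the length correction: by CPM, which does not correct for length, Celf2 ranked 4, Khdrbs1 5, Hnrnpl 6 and Sfpq 7 of the 8 genes.

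**Figure D3:**
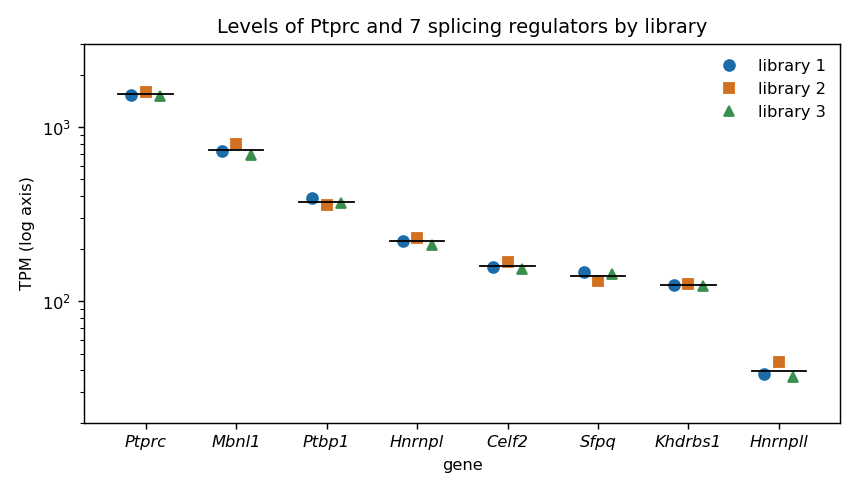
Points give the TPM (log axis) of each gene in libraries 1, 2 and 3 and black lines the mean. Ptprc stands at about 1543 TPM, and the regulators step down to Hnrnpll at 39.9 TPM with no overlap between neighbours.

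Hnrnpll (ENSMUSG00000024095.15, minus strand, chr17:80029487-80062334) encodes the hnRNP L-like protein that is induced on T cell activation and is required in mice for the switch to CD45RO. It was the lowest of the 8 genes, at 38.4, 44.7 and 36.6 TPM, yet ranked 3971 among protein-coding genes and above their median of 25.5 TPM. Its paralog Hnrnpl (ENSMUSG00000015165.16, plus strand, chr7:28808541-28822266), the general repressor of the CD45 variable exons through their CA-rich silencers, was at 221, 230.6 and 210.2 TPM. Hnrnpl thus exceeded Hnrnpll 5.76-, 5.15- and 5.75-fold in libraries 1, 2 and 3. Without length correction, that ratio was 3.48 ± 0.188 by estimated counts and 2.49 ± 0.124 in the second deposited gene table.

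Ptbp1 (ENSMUSG00000006498.16, plus strand, chr10:79854427-79864771), the polypyrimidine tract binding protein, which represses CD45 exon 4 in human cells, was at 392, 356 and 366 TPM. Its annotated exons overlap those of the antisense gene Gm17134, which was at 57.7, 38.3 and 40.7 TPM, and of Plppr3 on the other strand, at 5.56, 5.23 and 5.34 TPM. Since the strand setting is not given in the sources used here, reads of Ptbp1 and of these genes cannot be told apart where they overlap. Sfpq (ENSMUSG00000028820.13, plus strand, chr4:127021324-127037013) encodes PSF, which in human T cells joins the exon 4 silencer after activation, and was at 147, 131 and 143 TPM. Its exons overlap those of Gm12940 on the same strand, which was at 28.4, 35.0 and 33.6 TPM.

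Celf2 (ENSMUSG00000002107.18, minus strand, chr2:6539694-7509563), a splicing factor that human T cells raise on activation, was at 157, 167 and 153 TPM. Mbnl1 (ENSMUSG00000027763.13, plus strand, chr3:60472830-60629750), a muscleblind protein that often opposes CELF proteins on the same exons, was at 733, 796 and 691 TPM, or 4.65 ± 0.119 times Celf2. Khdrbs1 (ENSMUSG00000028790.13, minus strand, chr4:129703164-129742303) encodes Sam68, which links Ras signalling to inclusion of a variable Cd44 exon, and was at 125, 126 and 121 TPM. It had the smallest relative spread of the 8 genes, 1.93% of its mean, and Hnrnpll the largest, 10.8%.

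All 8 genes differed between libraries beyond counting noise by the chi-square test over libraries with Benjamini-Hochberg adjustment, but so did 57.2% of the 13949 genes tested. The differences were small. The highest library exceeded the lowest 1.20-fold for Mbnl1 (adjusted p = 2.16e-99), 1.19-fold for Hnrnpll (adjusted p = 0.000526) and 1.10-fold for Ptprc (adjusted p = 4.37e-56) after scaling by library size. For the other 5 genes this ratio lay between 1.07 and 1.12, with adjusted p between 9.73e-05 for Ptbp1 and 0.0215 for Khdrbs1. After division of the statistic by its median inflation over all genes, 6.45, only Ptprc and Mbnl1 passed among the 8, beside 4.45% of all genes.

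The shares of transcripts within each gene also differed between libraries for all 8 genes by a chi-square test of transcript usage, as they did for 84.6% of the 9736 genes tested. The statistic per degree of freedom was highest for Hnrnpl, at 91.7, followed by 41.9 for Mbnl1, 30.4 for Ptbp1, 26.0 for Celf2 and 20.9 for Ptprc. It was 10.4 for Hnrnpll, 7.00 for Sfpq and 4.87 for Khdrbs1. These last 3 did not pass once the statistic was divided by its median inflation of 9.32, a rule that 13.5% of all genes passed. The test takes the estimated counts as observed and ignores the uncertainty with which reads were assigned.

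For Hnrnpl the call held with posterior mean counts, at 59.6 per degree of freedom, after inflation correction, at 9.83, and without library 2, at 14.2. Its leading entry Hnrnpl-201 was at 93.0, 42.8 and 83.9 TPM in libraries 1, 2 and 3, while Hnrnpl-202 was at 9.98, 67.6 and 16.7 TPM, so library 2 alone had them the other way round. The posterior SD reached 20.1% of the count for Hnrnpl-201 and 75.1% for Hnrnpl-202, and the summed share of all protein-coding Hnrnpl entries was 57.1%, 58.9% and 56.0%. Retained-intron entries took another 35.5% ± 1.94, of which Hnrnpl-206 held 13.8% ± 5.61 of the gene's TPM.

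Hnrnpll itself was split between coding RNA and an entry annotated as a target of nonsense-mediated decay, the pathway that degrades RNA with an early stop codon. That entry, Hnrnpll-203, was at 14.3, 23.7 and 15.7 TPM, or 37.2%, 52.9% and 42.8% of the gene, with a posterior SD of at most 16.1% of its count. The median share of such entries was 6.77% over 2511 genes. The coding entries Hnrnpll-205 and Hnrnpll-201 took 26.1% ± 6.44 and 14.6% ± 4.14, with posterior SDs of up to 33.3% and 44.0%. Library 2 had the highest Hnrnpll level, 44.7 TPM, and the lowest coding share, 31.8%, against 47.1% and 43.1% in libraries 1 and 3.

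What sets Hnrnpll-203 apart is an extra exon of 83 bases. It is printed because it carries the stop codon, found from the annotated coding frame and shown in capitals.
Hnrnpll 83-base exon, minus strand, chr17:80044940-80045022: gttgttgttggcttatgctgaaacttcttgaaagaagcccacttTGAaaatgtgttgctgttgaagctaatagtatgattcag

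The stop TGA begins at base 45 of this exon, after 331 codons, and 7 exons follow it. The exon was held by 1 of 4 entries that reach across it and by 42.8%, 60.1% and 48.3% of their TPM, or 50.4% ± 8.84. Its length leaves a remainder of 2 when divided by 3, so including it also shifts the frame. The letters TGTT occur 4 times in it, TGCT 2 times and TCTT 1 time, where 26.5%, 36.5% and 29.4% of exons of like length hold them. CACA and TAAA occur 0 times, where 32.4% and 21.4% of such exons hold them. These matches were not tested as binding sites.

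Ptbp1 is known in human cells to dampen its own expression by skipping an exon of its own RNA. The mouse 34-base exon below shifts the frame when left out, having a remainder of 1 when divided by 3, and capitals mark TCTT.
Ptbp1 34-base exon, plus strand, chr10:79862014-79862047: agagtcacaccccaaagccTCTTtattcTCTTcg

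TCTT occurs 2 times in these 34 bases, where 12% of exons of like length hold it. The exon was included in 91.9%, 94.4% and 93.5% of the TPM of the 6 Ptbp1 entries across it. The entries without it, Ptbp1-207 and Ptbp1-201, had posterior SDs of up to 109% and 231% of their counts. The share that skipped the exon was therefore poorly determined. A 78-base Ptbp1 exon, which keeps the frame, was included in 36.3% ± 1.17. The leading entries were Ptbp1-202, at 48.3% ± 1.87 of the gene, and Ptbp1-216, at 23.5% ± 3.57.

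Mbnl1 also carries a pair of exons that keep the frame. The 54-base exon, known for its part in holding the protein in the nucleus, is printed in full and has no match to any of the searched letters.
Mbnl1 54-base exon, plus strand, chr3:60614683-60614736: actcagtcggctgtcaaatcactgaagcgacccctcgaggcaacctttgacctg

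This exon was included in 33.3%, 33.0% and 32.2% of the TPM of the 14 entries across it. The 36-base exon, by contrast, was included in 65.6%, 65.5% and 65.7% of the TPM of 11 entries. Their SDs over libraries were 0.596 and 0.127 percentage points, against 8.84 for the Hnrnpll exon. These SDs are not matched for depth, as Mbnl1 had 21659 to 26123 estimated counts per library and Hnrnpll 973 to 1161. The TPM of Mbnl1 lay mainly in Mbnl1-203, at 26.7% ± 4.67, Mbnl1-214, at 25.0% ± 1.24, and Mbnl1-211, at 15.5% ± 1.66. The regulators' cassette exons and the annotated transcript kinds were chosen for description after levels of these genes had been seen.

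**Figure D4:**
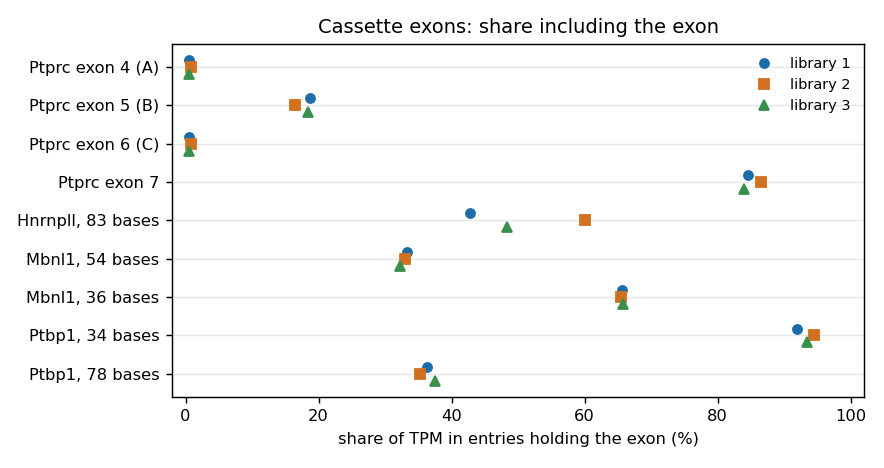
Points give, for each library, the share (%) of TPM in entries holding a cassette exon among the entries of the gene that reach across it. Ptprc A and C lie near 0 and exon 7 at 83.9% to 86.5%, and the Hnrnpll 83-base exon spreads widest, from 42.8% to 60.1%.

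In the other genes, Sfpq stood out for entries annotated as processed transcripts without a coding frame. These took 63.5% ± 1.22 of its TPM, beside a median of 5.71% over 3726 genes, led by Sfpq-206 at 61.5, 46.6 and 60.4 TPM. The coding entry Sfpq-201 was at 54.1, 49.2 and 50.2 TPM, or 36.5% ± 1.22. These shares depend on the length correction, as Sfpq-201 is 3465 bases long and Sfpq-206 is 925. By estimated counts, which do not correct for length, Sfpq-201 held 1839, 1486 and 1508 of the gene's 2591, 2076 and 2173. Sfpq-206 held 537, 361 and 465. Khdrbs1 lay mainly in its coding entry Khdrbs1-201, at 80.1% ± 2.66, with 17.9% ± 2.04 in Khdrbs1-202, annotated as a target of nonsense-mediated decay. Celf2 had 81.1% ± 2.11 in coding entries, of which Celf2-224 took 39.5% ± 2.78, Celf2-206 took 21.4% ± 1.02 and Celf2-221 took 11.3% ± 4.62 with a posterior SD of up to 44.1%.

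**Figure D5:**
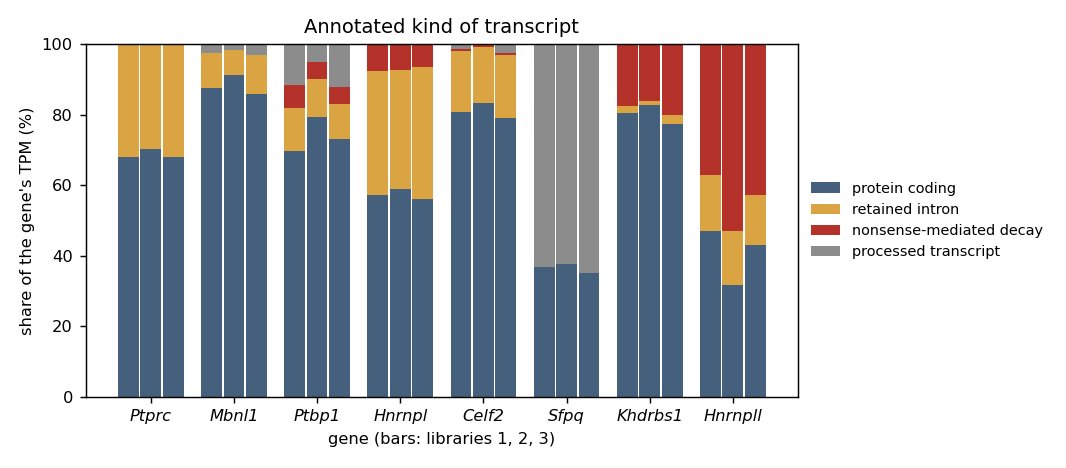
For each gene, 3 bars (libraries 1, 2 and 3) split its TPM (%) by the annotated kind of transcript. Hnrnpll shows the largest share marked for nonsense-mediated decay, 37.2% to 52.9%, and Sfpq the largest share of processed transcripts, 62.4% to 64.8%.

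The partners of CD45 were well represented. All 12 listed partners and substrates exceeded 10 TPM, with a median of 370.0 TPM, and 9 of 12 differed between libraries by the chi-square test, beside 57.2% of all genes tested. The kinase gene Lck, whose inhibitory site CD45 dephosphorylates, was at 1151, 1407 and 1139 TPM. The phosphatase gene Ptpn22, which acts on the same kinase, averaged 772 ± 43.4 TPM and the adaptor gene Skap1 averaged 519 ± 11.4 TPM. Ptprcap, the CD45-associated protein, was at 307, 281 and 299.7 TPM.

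A list of 7 other genes covered the circuit through which PSF reaches CD45 RNA in human T cells, and genes related to it. All were present, at a median of 152 TPM, and 7 of 7 differed between libraries, beside 57.2% of all genes. Thrap3, which holds PSF away from RNA in resting human T cells, was at 182, 231 and 216 TPM, above Sfpq in every library. Matr3 and Nono, nuclear partners of PSF, averaged 331 ± 36.4 and 169 ± 15.0 TPM. The kinase genes of the circuit, Gsk3a and Gsk3b, averaged 58.7 ± 5.71 and 56.5 ± 1.89 TPM.

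Among 23 other hnRNP genes the median was 146 TPM, and 18 of 23 differed between libraries, beside 57.2% of all genes. Hnrnpk, Hnrnpa2b1 and Hnrnpf led them, at 1425 ± 108, 1160 ± 115 and 1112 ± 119 TPM. A list of 14 genes, mainly paralogs of the regulators with some other RNA-binding genes such as Rbm14, had a lower median, 7.19 TPM. Of these genes, 5 of the 10 that could be tested differed between libraries, near the 57.2% of all genes. Ptbp3 averaged 151 ± 11.4, Celf1 109 ± 3.19 and Rbm14 61.4 ± 5.40 TPM, while Khdrbs2, Khdrbs3, Celf5 and Celf6 averaged 0.61, 0.2, 0.137 and 0.0467 TPM. In 4 families the described regulator was the highest in every library: Mbnl1 over Mbnl2, at 35.4 ± 3.58 TPM, Celf2 over Celf1, Khdrbs1 over its paralogs, and Ptbp1 over Ptbp3 and over the neuronal Ptbp2, at 23.1 ± 2.69 TPM. Sfpq is not among them. Nono, listed instead with the PSF circuit, exceeded Sfpq in every library, at 186, 161 and 159 TPM.

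Of 16 other splicing regulators known from T cells, 11 differed between libraries, beside 57.2% of all genes, and the median was 194 TPM. Rbm39, Srsf5 and Srsf7, an RNA-binding coactivator and a pair of serine- and arginine-rich splicing factors, averaged 1475 ± 90.4, 789 ± 19.0 and 697 ± 94.1 TPM, and Rbfox2 averaged 0.82 ± 0.338 TPM. The genes nearest to Ptprc in level, by distance over 3 libraries on the log2(TPM + 0.1) scale among 10505 genes, were Ifrd1, Il2rg, Pnrc1, Rac2 and Nr4a1, at distances of 0.0927, 0.0970, 0.0991, 0.123 and 0.123. Leaving out library 2 or library 3 kept 3 of these 5.

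The second deposited gene table gave other proportions for the same genes. Ptprc had 7220, 7100 and 7080 whole-number counts there, against 54257, 52184 and 47210 estimated counts in the main table. Hnrnpll had 688, 681 and 602, against 1149, 1161 and 973. The ratio of Ptprc to Hnrnpll was accordingly 10.9 ± 0.752 in the second table and 46.9 ± 1.81 by estimated counts. The ratio of Mbnl1 to Celf2 was 1.63 ± 0.0614 in the second table and 5.25 ± 0.329 by estimated counts. Ptprc remained the highest of the 8 genes and Hnrnpll the lowest in each library of either table.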

How the data were processed

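PolyA RNA libraries were made from sheared RNA of 100 to 300 bases, per the labels. The authors deposited, per library, a gene and a transcript table on mm10 with GENCODE M21, holding expected counts (estimated counts that share ambiguous reads), TPM, FPKM, and posterior mean and SD of counts, per the file headers. A second deposited gene table holds whole-number counts for 22457 rows on GENCODE M4. The sources used here do not state the aligner, the quantifier, the strand setting or how the second table was counted. Percent shares of a gene's transcripts are deposited too, and were recomputed here from TPM. Deposited effective lengths equal the length minus 49 bases for each of 141767 transcripts longer than that, which treats a read as a fragment of 50 bases.

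The 8 genes, lists, tests and named genes were chosen with earlier results of these data known. Named genes were the members, every Ptprc transcript, other members' transcripts with a mean share of at least 10%, the 3 highest genes of each list, list members under 1 TPM, and the 5 genes nearest to Ptprc in level. Others (Mbnl2, Ptbp2, Gsk3a, Gsk3b, Ptprcap, Thrap3's libraries and single markers) were named after their values were seen. Some genes that the lists cover are not reported here.

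Expected counts were rounded and tested per gene by chi-square over libraries (TMM sizes from edgeR 4.0.16, at least 30 counts), and per gene for transcript usage (transcripts of at least 10 counts), each with Benjamini-Hochberg adjustment at 0.05. Both tests were checked on simulated counts with counting noise alone. Those counts lack the extra spread between libraries seen here, so behaviour of the tests under that spread was not tested. Every pair of libraries differed by more than sampling noise. For the pairs, total counts and not TMM sizes served as library sizes. Mean chi-square per gene was 18.1 (libraries 1 and 2), 5.66 (1 and 3) and 18.5 (2 and 3). All 3 were kept as separate samples. At 0 counts, the upper limit of 3 counts corresponds to 0.185, 0.202 or 0.212 CPM by library, for counting error only. Second-table totals were 5110680, 4812984 and 4579836. Alternatives were DESeq2 1.42.0 size factors, total counts, other filters, inflation correction, the second table, other units and denominators, and leaving out each library. Python 3.11.15 with scipy 1.17.1 and R 4.3.3 were used.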

Additional observations from a re-analysis of the deposited data

How the results depend on the processing

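Ptprc, Mbnl1, Ptbp1 and Hnrnpll kept ranks 1, 2, 3 and 8 by TPM, posterior mean TPM, FPKM and CPM. By estimated counts the shares were 79.0% (RO with exon 7), 17.3% (RO without exon 7), 2.85% (RB) and 0.785% (full length), so RB and RO without exon 7 changed places. Counts do not correct for length, and the RB entry has 702 bases against 4611 for Ptprc-204. The swap therefore does not show that RB was the rarer form. Over every Ptprc entry, the TPM shares in the same order were 45.9%, 10.2%, 11.7% and 0.424%. Leaving out 1 library gave 65.7% to 68.0%, 14.5% to 15.7%, 16.7% to 18.0% and 0.549% to 0.669%. By CPM, Celf2, Khdrbs1, Hnrnpl and Sfpq ranked 4, 5, 6 and 7.

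The library test called 4 of the 8 genes with total counts (54.5% of all genes), 2 after inflation correction (621 genes in all) and 2 in the second table (Ptprc and Sfpq, 2804 genes in all). Leaving out 1 library gave 4 to 7 of the 8 and 3546 to 5516 genes. Without library 2, Hnrnpll, Hnrnpl, Sfpq and Khdrbs1 did not pass; without library 3, Hnrnpl, Ptbp1, Celf2 and Khdrbs1 did not, and without library 1, Sfpq did not. The usage test called 5088 of 6152 genes (82.7%) with at least 100 counts per transcript, and 1313 genes and 5 of the 8 after inflation correction; without library 3, Khdrbs1 did not pass. No paired analysis was possible because the libraries form 1 group.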
